A study of Homo sapiens with 4 samples.

Results

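The genes of cholesterol synthesis, fatty acid synthesis, lipid storage and the SREBP switch that controls them were followed in LCC9 breast cancer cells given the compound A7 or vehicle. Members were 40 symbols chosen by pathway, and 38 of them were among the 23605 gene symbols in the expression tables. The other 2 are alternative names of genes present under another symbol (SC4MOL for MSMO1, SC5D for SC5DL). LCC9 is a derivative of the MCF-7 line, and the labels call it tamoxifen resistant and positive for wild-type estrogen receptor alpha. All cells grew in IMEM free of phenol red with 5% charcoal-stripped serum, a serum low in steroids and in some lipids. They then received DMSO vehicle (2 libraries) or A7, described as a mimetic of BRCA1 (2 libraries), for 24 h. The dose is not given in the sources used here, and the titles of the samples and of the series name different NSC numbers, so A7 is called by its code name. The series asked about IKKB and the estrogen receptor at its promoter, so lipid synthesis was not its stated question.

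Cells make cholesterol from acetyl-CoA, first through the mevalonate arm to isoprenoids and then through squalene, lanosterol and a run of sterol intermediates. Both this pathway and the making of unsaturated fatty acids are driven by the SREBP transcription factors, encoded by SREBF1 and SREBF2. When sterols are low, SCAP escorts SREBP from the endoplasmic reticulum to the Golgi, where it is cut and released to the nucleus. When sterols are plentiful, the INSIG proteins hold SCAP and SREBP back. Since INSIG1 is itself an SREBP target, it closes a feedback loop. Breast cancer cells use these pathways for membranes, and surplus fatty acids and sterols are kept as esters in lipid droplets.

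Levels are in FPKM, a fragment count corrected for transcript length and for how many fragments of the library were mapped, and were divided by a scaling factor for each library (scaled FPKM). Depth read from the low values was 1.852 in A7 replicate 1 and 1.421 in A7 replicate 2, in multiples of vehicle replicate 1, which vehicle replicate 2 matched closely. All 8 luminal markers fixed for the check (KRT8, KRT18, KRT19, EPCAM, CDH1, ESR1, GATA3 and FOXA1) were above 1 FPKM in every library. Of 5 basal markers, the keratins KRT5 and KRT14 were listed at 0, and ACTA2 had 13.7 and 14.6 with vehicle and 11.1 and 11.3 with A7. TP63 ran from 0.547 to 1.46 and MYH11 from 0.0715 to 0.436. Of 7 leukocyte and endothelial markers, 6 were under 1 in all libraries, and CD68 had 3.47 to 4.15. Of 6 adipocyte markers, 5 were listed at 0 in all libraries, and ADIPOQ had 0.0439 in A7 replicate 1 alone. The summed level of 6 fibroblast markers was 11.0 in A7 replicate 1 against 0.416, 0.421 and 0.963 in vehicle replicates 1 and 2 and A7 replicate 2. Most of it was DCN, at 8.40 there, while PDGFRB was listed at 0 in all. DCN and LUM were listed at 0 in both vehicle libraries and had 0.23 and 0.12 in A7 replicate 2. The 3 largest differences among the tested members are therefore given without A7 replicate 1 too, as are several smaller ones. Whether the libraries of a group were separate cultures is not stated in the labels. Every p therefore weighs a group difference against a spread between libraries that may be technical, and that limma pools in part over genes.

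The members covered a wide range of levels. Squalene synthase (FDFT1) had a mean of 444 scaled FPKM over the 4 libraries, above 96.8% of all tested genes. Stearoyl-CoA desaturase (SCD), which makes monounsaturated fatty acids, had 424, and the sterol isomerase EBP had 382. FDPS, MSMO1 and ACAT2, with 263, 240 and 174, also ranked above at least 94.3% of tested genes. At the other end, 9 members had a mean under 1 FPKM and were not tested: MVK, MVD, SREBF2, SCAP, ACACA, FASN, FADS2, DGAT1 and PLIN2. This low end held ACACA, the rate-limiting carboxylase of fatty acid synthesis, and FASN, the synthase after it, while SCD of the same pathway was near the top.

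**Figure D1:**
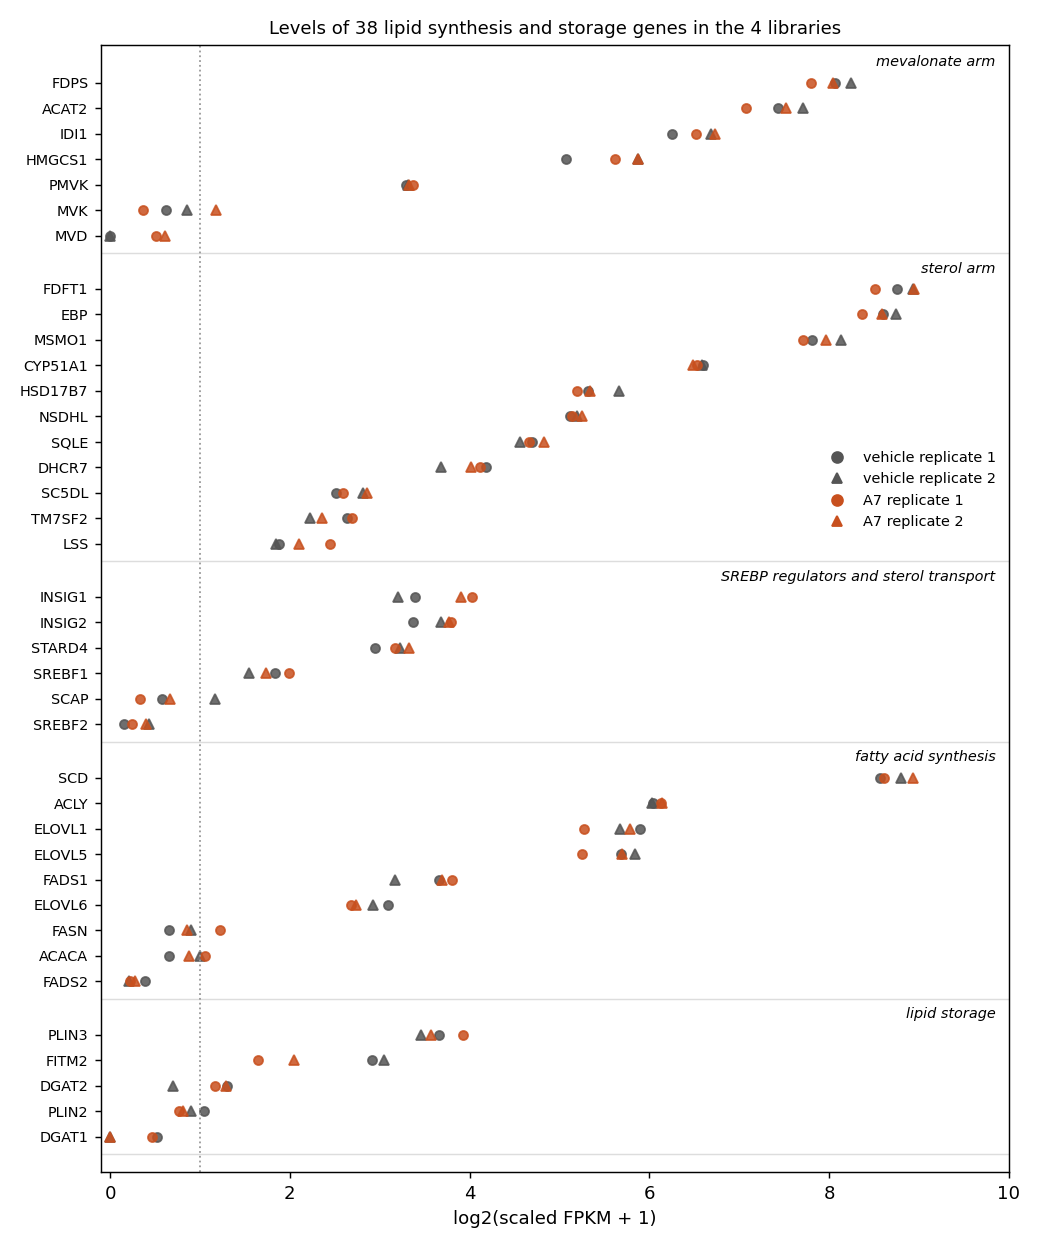
Level of each of the 38 genes in each library, as log2(scaled FPKM + 1), by pathway group, with circles for replicate 1 and triangles for replicate 2. The dotted line marks 1 scaled FPKM; FITM2 and INSIG1 show vehicle and A7 apart, while for most genes the 4 points interleave.

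Among the 38 genes, those with GC-rich transcripts tended to have lower levels. Spearman's rho between mean level and GC content was -0.52 over the 38 members and -0.07 over the 8124 tested genes with a known transcript, and with transcript length it was -0.30 and -0.33. The 38 include genes under the test minimum, and over the 10640 genes above 0 in every library the values were -0.15 for GC content and -0.38 for length. These are descriptions over genes that share libraries, and the transcript sequences come from another genome build than the authors used. The 9 members under the minimum had a median GC content of 60.7% (48.1 to 65.6%) and a median length of 3711 bases, with FASN at 65.3% GC and 8565 bases and ACACA at 48.1% and 9589 bases. The 29 tested members had a median of 49.0% (36.9 to 64.7%) and 2469 bases. The part of GC content and length in these levels was not tested.

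**Figure D2:**
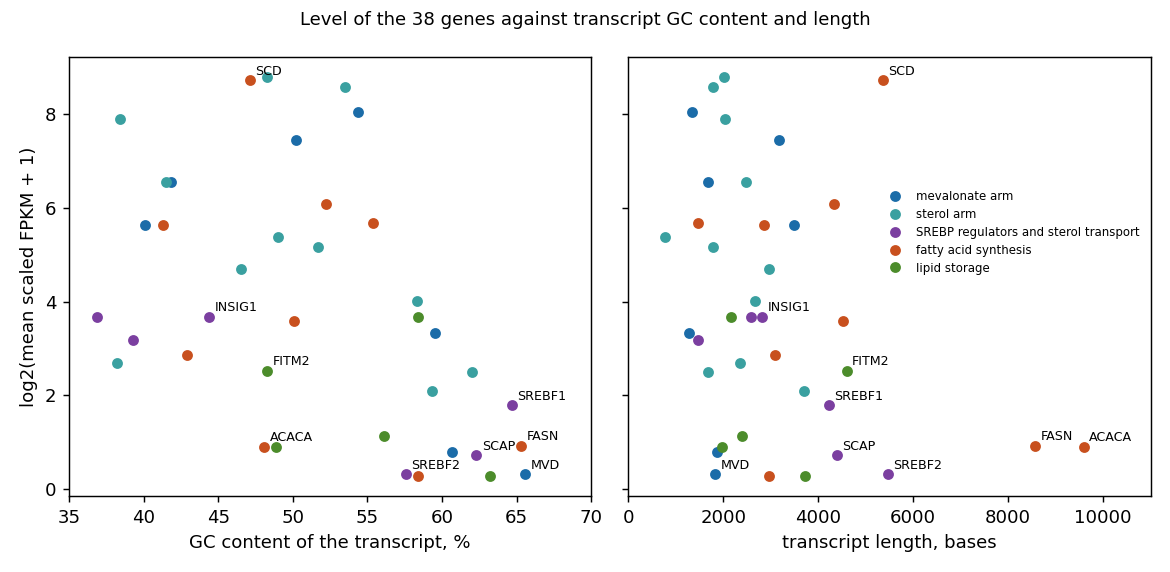
Mean level of the 38 genes, as log2(mean scaled FPKM + 1), against the GC content (left) and length (right) of the transcript, coloured by pathway group. FASN (65.3% GC) and MVD (65.6%) sit low, and SCD (47.1%) sits high.

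Between A7 and vehicle no member passed the test. With limma and Benjamini-Hochberg adjustment over 8952 genes, 0 of the 29 tested members had an adjusted p under 0.05, against 2 genes (0.0223%) of all tested. At an unadjusted p under 0.05 there were 2 members, FITM2 with a lower mean (3.55% of all tested genes were lower at this p) and INSIG1 with a higher one (2.21%), together 6.9% against 5.76% of all tested genes. The vehicle and A7 libraries did not overlap for 11 members (37.9%), against 36.9% of all tested genes, so the share was close to the background. Of these 11, 6 had the higher values with A7 (PMVK, LSS, INSIG1, INSIG2, ACLY and FADS1; 18.3% of all tested genes) and 5 the lower (FDPS, CYP51A1, EBP, ELOVL6 and FITM2; 18.6%), where quantile normalization turned the sign of CYP51A1. Only FITM2 and INSIG1 among the tested members also differed by at least 1.5-fold in their means, a combination met by 7.48% of all tested genes. In bulk RNA, fewer cells of a kind and less RNA per cell cannot be told apart, for these as for all values here.

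**Figure D3:**
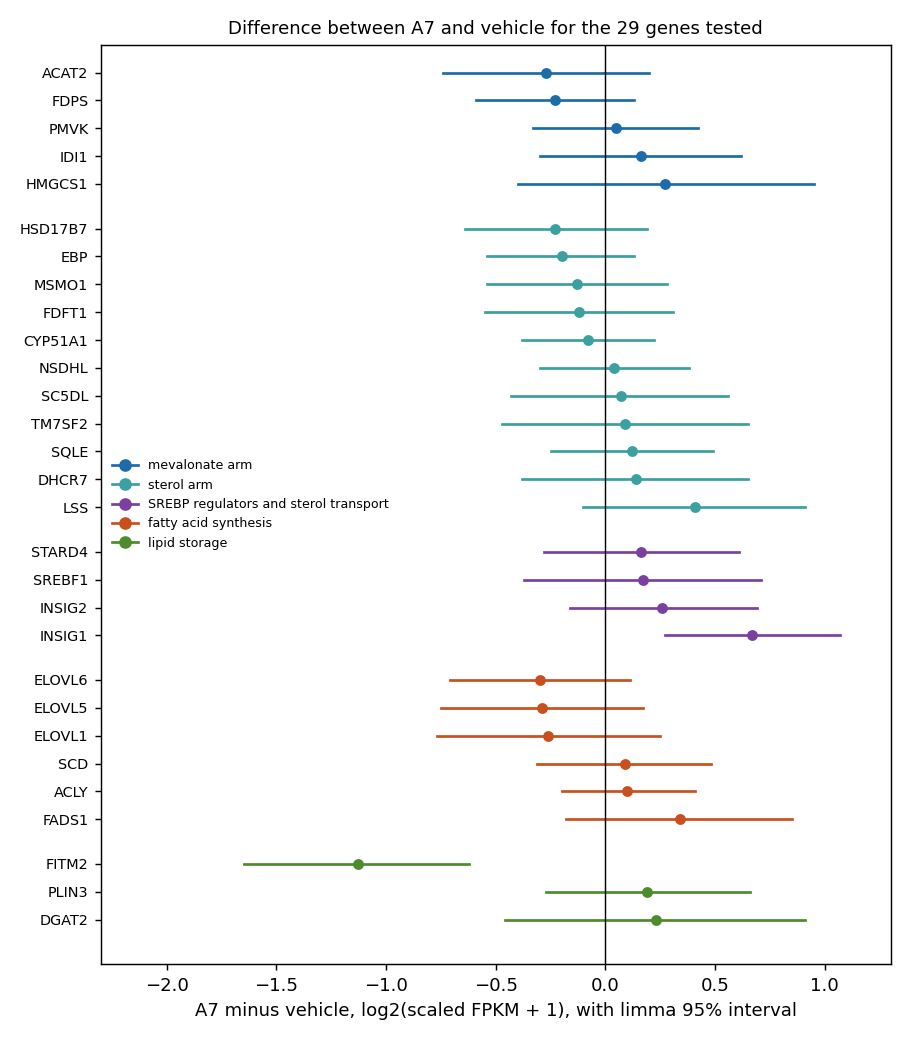
Difference between A7 and vehicle for the 29 tested genes, on the log2(scaled FPKM + 1) scale, with the limma 95% interval, grouped by pathway. The intervals of FITM2 and INSIG1 lie to one side of 0, and those of the other 27 cross it; after adjustment over all genes neither gene passed.

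The mevalonate arm, from acetyl-CoA to farnesyl diphosphate, held 5 tested genes, 3 with a higher and 2 with a lower mean with A7, and a median log2 difference of 0.05 beside -0.0019 for all genes. HMGCS1, the HMG-CoA synthase and a classical SREBP target, had 32.7 and 57.5 scaled FPKM with vehicle and 48.1 and 57.7 with A7, a difference of 0.27 (SE 0.28). Vehicle replicate 1 was the low library, and the difference was -0.13 without it. IDI1, the isomerase that makes dimethylallyl diphosphate, showed the same order, with 74.9 and 102 for vehicle and 90.7 and 105 for A7, and -0.06 without vehicle replicate 1. FDPS, the farnesyl diphosphate synthase, had 266 and 301 under vehicle and 221 and 263 under A7. Both A7 values lay below both vehicle values, by a log2 difference of -0.23 (limma, adjusted p = 0.806). ACAT2, the cytosolic thiolase at the entry of the pathway, was in the same direction (189 ± 25.7 and 158 ± 34.1, SD, n = 2 each), with overlapping libraries. PMVK, phosphomevalonate kinase, was nearly level, at 8.85 ± 0.0897 and 9.19 ± 0.180 (SD, n = 2 each). Below the minimum, MVK had overlapping values of 0.292 to 1.27. MVD, the decarboxylase after PMVK, was listed at 0 for each vehicle library and had 0.426 and 0.529 with A7, which is about 6 fragments in all. The A7 libraries were deeper, and the 95% counting interval of the A7 to vehicle ratio per depth began at 0.71, with no upper bound.

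The sterol arm held 11 tested genes, 6 with a higher and 5 with a lower mean, with differences between -0.23 and 0.41 and a median of 0.04. Of the 5 lower means, those of FDFT1, CYP51A1 and MSMO1 turned higher with quantile normalization (0.11, 0.06 and 0.02). Rescaling each library to the same summed FPKM (TPM scaling) moved the median over all genes up to 0.174 and left FDFT1, CYP51A1, MSMO1 and EBP above 0 but below that median. FDFT1, which commits farnesyl diphosphate to sterols, had 432 and 489 with vehicle and 364 and 490 with A7. SQLE, the epoxidase that is a rate-limiting step, had 24.8 and 22.6 with vehicle and 24.2 and 27.4 with A7. Neither enzyme separated the groups. LSS, which closes the ring to lanosterol, was the gene of this arm with the largest difference: 2.68 and 2.60 with vehicle and 4.45 and 3.29 with A7. Its mean was 1.46-fold higher with A7 (log2 difference 0.41, SE 0.21, 95% interval -0.10 to 0.91; limma, unadjusted p = 0.0943, adjusted p = 0.806). Without A7 replicate 1 the difference was 0.24, and about 47 fragments in vehicle and 117 in A7 lie behind it.

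After lanosterol, CYP51A1, the demethylase, had 95.8 and 94.7 with vehicle and 91.2 and 88.9 with A7. The replicates of CYP51A1 were tight and the groups did not overlap, yet the log2 difference was -0.08 and became 0.06 with quantile normalization. EBP, which shifts the ring double bond, had 409 ± 28.9 with vehicle and 356 ± 38.4 with A7 (SD, n = 2 each), with no overlap and a difference of -0.20 (-0.04 with quantile normalization, 0.02 with TPM scaling beside 0.174 for all genes). DHCR7, the last reductase to cholesterol, had 17.2 and 11.8 with vehicle and 16.4 and 15.2 with A7. Vehicle replicate 2 alone was low. The other genes of the arm (MSMO1, NSDHL, HSD17B7, TM7SF2 and SC5DL) had differences from -0.23 (HSD17B7) to 0.09 (TM7SF2), and their groups overlapped. HSD17B7 has a near-identical copy, HSD17B7P2 (20.1 to 23.9 scaled FPKM), and CYP51A1 has pseudogene copies, so their reads may be split with those. ACAT2 shares 34.8% of its exon bases with the opposite-strand gene SOD2 and 12.5% with TCP1, and FDPS shares 28.9% with RUSC1-AS1. The shares were smaller for IDI1 with IDI2-AS1 (4.7%), STARD4 with STARD4-AS1 (2.2%), MVK with MMAB (2.3%) and DGAT1 with HSF1 (3.7%). PLIN3 (21.5%), HMGCS1 (19.9%) and DGAT2 (17.2%) share bases with opposite-strand genes that are not in the expression tables. Since the protocols name no strand marking, reads from the shared bases cannot be told apart.

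**Figure D4:**
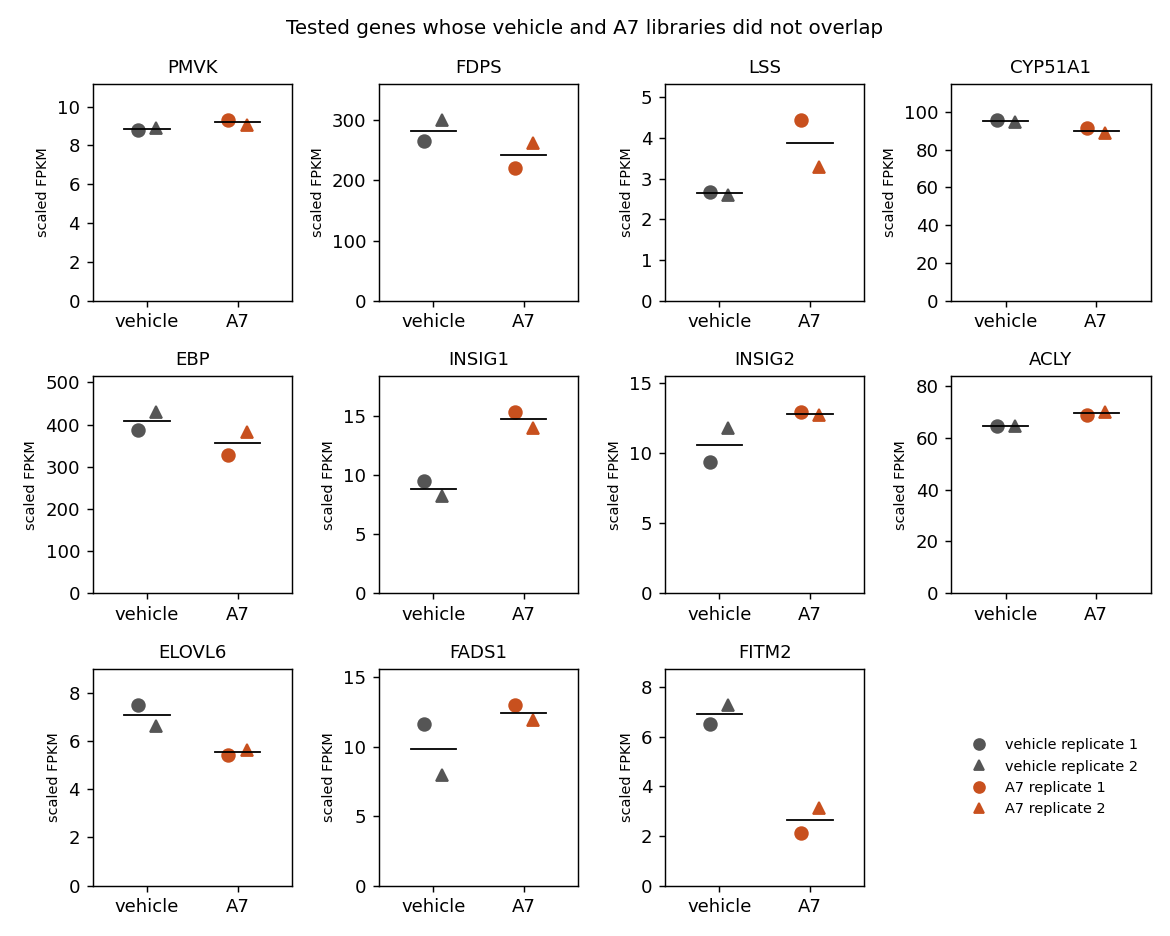
Scaled FPKM of the 11 tested genes whose vehicle and A7 libraries did not overlap (circles, replicate 1; triangles, replicate 2; bars, group means; axes start at 0). INSIG1 and FITM2 differ by at least 1.5-fold in their means, and the other 9 by less.

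The regulators and sterol carriers held 4 tested genes, SREBF1, INSIG1, INSIG2 and STARD4, and all 4 had a higher mean with A7, by a median of 0.22. Of all tested genes, 49.7% had a higher mean. INSIG1 carries the feedback on SREBP processing. It had 9.49 and 8.18 scaled FPKM with vehicle and 15.3 and 14 with A7. Both A7 libraries lay well above both vehicle libraries. The mean went from 8.84 ± 0.925 to 14.7 ± 0.937 (SD, n = 2 each), 1.66-fold higher, for a log2 difference of 0.67 (SE 0.16, 95% interval 0.27 to 1.07; limma, unadjusted p = 0.00630, adjusted p = 0.749). About 120 vehicle and 329 A7 fragments gave a ratio per depth of 1.65 (95% interval 1.34 to 2.06, counting error only). Of all tested genes, 1.83% had a log2 difference at least as high as INSIG1. Without A7 replicate 1 its difference was 0.61 (limma, unadjusted p = 0.0565).

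INSIG2, the second INSIG, which is not driven by SREBP in the same way, had 9.34 and 11.8 with vehicle and 12.9 and 12.7 with A7, a difference of 0.26 (limma, adjusted p = 0.810), or 0.11 without vehicle replicate 1. SREBF1 had 2.57 and 1.92 with vehicle and 2.99 and 2.32 with A7, with overlapping libraries. STARD4, a carrier of cholesterol between membranes, had 6.74 and 8.32 with vehicle and 8 and 9.06 with A7, and overlapped as well. SREBF2, the factor most tied to cholesterol synthesis, had 0.116 and 0.351 with vehicle and 0.188 and 0.315 with A7, too few fragments to read a difference (7 and 11). SCAP, its escort, had 0.490 and 1.24 with vehicle and 0.264 and 0.582 with A7, and its ratio per depth of 0.47 had a counting interval of 0.22 to 1.00.

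The promoters of the 3 tested genes with the largest differences, INSIG1, FITM2 and LSS, are shown as the reference sequence upstream of the start, because SREBP binds sterol regulatory elements and E-boxes and works with the CCAAT-binding factor NF-Y. They are from RefSeq (build GRCh38.p14), the 250 bases before the start, 5′ to 3′ on the gene's strand, with capitals for matches to 3 motifs searched on both strands: TCACNCCAC (sterol regulatory element), CACGTG (E-box) and CCAAT. INSIG1 is at chr7:155297628-155297877 on the plus strand, FITM2 at chr20:44311203-44311452 and LSS at chr21:46228775-46229024, both on the minus strand.
INSIG1: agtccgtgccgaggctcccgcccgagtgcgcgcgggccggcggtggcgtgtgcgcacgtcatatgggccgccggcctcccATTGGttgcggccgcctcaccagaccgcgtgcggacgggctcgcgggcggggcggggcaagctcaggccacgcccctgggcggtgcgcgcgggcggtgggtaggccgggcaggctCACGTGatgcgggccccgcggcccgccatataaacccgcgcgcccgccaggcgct
FITM2: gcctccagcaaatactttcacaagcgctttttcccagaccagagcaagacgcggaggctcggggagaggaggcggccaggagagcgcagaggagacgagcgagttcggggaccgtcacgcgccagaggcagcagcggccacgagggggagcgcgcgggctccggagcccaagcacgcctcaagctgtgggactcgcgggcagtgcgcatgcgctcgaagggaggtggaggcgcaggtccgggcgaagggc
LSS: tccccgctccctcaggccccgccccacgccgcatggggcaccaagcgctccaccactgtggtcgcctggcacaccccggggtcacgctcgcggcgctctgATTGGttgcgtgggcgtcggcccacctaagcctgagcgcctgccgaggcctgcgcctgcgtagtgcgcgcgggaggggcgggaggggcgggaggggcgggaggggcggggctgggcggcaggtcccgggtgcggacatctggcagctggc
INSIG1 held an E-box from base 55 before the start and a CCAAT on the other strand (ATTGG) from base 170. LSS held ATTGG from base 150, and none of the 3 letter patterns was in the FITM2 window. Promoters matched by symbol for 32 members (ACAT2, FDFT1, SQLE, FASN, DGAT1 and DGAT2 were not matched). Of the 32, 20 (62.5%) held CCAAT, against 33.0% of all 27305 promoters, 5 (15.6%) held CACGTG, against 6.49%, and 1 (SREBF2, 3.12%) held TCACNCCAC, against 0.875%. The 5 with the E-box were SC5DL, SCAP, INSIG1, ELOVL5 and PLIN2. A match is a description of these letters only.

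The fatty acid synthesis genes held 6 tested members, 3 with a higher and 3 with a lower mean, with a median of -0.08. With quantile normalization the median was 0.03, and relative to the median of all genes it was -0.04 with TPM scaling. ACLY, which makes cytosolic acetyl-CoA from citrate, had 64.6 and 64.5 with vehicle and 68.9 and 69.8 with A7. These replicates were very close and did not overlap, and the difference was 0.10 (SE 0.12; limma, adjusted p = 0.891). SCD had 378 and 443 with vehicle and 390 and 486 with A7. The replicates of each group differed more than the group means. FADS1, the delta-5 desaturase, had 11.6 and 7.97 with vehicle and 13.0 and 11.9 with A7 (0.34, SE 0.21; limma, adjusted p = 0.806). Its difference was 0.09 without vehicle replicate 2 and 0.58 without vehicle replicate 1. ELOVL6, the elongase of saturated and monounsaturated chains, had lower values with A7, with 7.50 and 6.62 for vehicle and 5.43 and 5.64 for A7 (-0.30, SE 0.17; limma, adjusted p = 0.806). ELOVL1 and ELOVL5, which extend very long and polyunsaturated chains, also had lower means (45.8 ± 11.5 against 54.3 ± 6.13, and 43.9 ± 9.59 against 53.5 ± 4.34, SD, n = 2 each), with overlap. Without A7 replicate 1 their differences went from -0.26 and -0.29 to -0.0049 and -0.07, and that of SCD, 0.09, was -0.03 without vehicle replicate 1 and -0.07 without A7 replicate 2.

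ACACA, which makes malonyl-CoA, had 0.573 and 0.997 with vehicle and 1.08 and 0.840 with A7. FASN, the synthase that builds palmitate, had 0.574 and 0.871 with vehicle and 1.34 and 0.805 with A7. FASN rests on about 32 and 78 fragments, a ratio per depth of 1.47 with a counting interval of 0.96 to 2.29. FADS2, the delta-6 desaturase, had 0.158 to 0.312 over all libraries.

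Lipid storage held the member with the largest difference. FITM2, an endoplasmic reticulum protein needed for lipid droplets to form and bud, had 6.53 and 7.29 with vehicle and 2.14 and 3.14 with A7. Both A7 values were below 0.5 of either vehicle value, and the mean went from 6.91 ± 0.538 to 2.64 ± 0.709 (SD, n = 2 each), 2.62-fold lower. The log2 difference was -1.13 (SE 0.21, 95% interval -1.65 to -0.62; limma, unadjusted p = 0.00175, adjusted p = 0.487), and 0.726% of all tested genes were at least that far down. About 157 vehicle and 97 A7 fragments gave a ratio per depth of 0.37 (0.29 to 0.48, counting error only). Without A7 replicate 1, the library with the highest summed fibroblast markers, the difference was -0.93. FITM2 has no near-identical copy, and no overlap of at least 50 exon bases with another gene was found.

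The other storage genes were mixed. PLIN3, a coat protein of small droplets, had 11.6 and 10 with vehicle and 14.2 and 10.9 with A7, and DGAT2, which makes triglyceride, had 1.46 and 0.631 with vehicle and 1.25 and 1.44 with A7, both overlapping. PLIN2, the droplet coat protein of most cells, had 1.07 and 0.871 with vehicle and 0.704 and 0.757 with A7, not overlapping but under the minimum and resting on about 9 and 11 fragments. DGAT1, the other triglyceride synthase, had 0.438 in vehicle replicate 1 and 0.386 in A7 replicate 1 and was close to 0 in both second replicates, about 10 fragments in all.

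The spread between replicates was as large as the differences between groups. The median gap between replicates was 0.23 for vehicle and 0.22 for A7 on the log2 scale, and the median absolute group difference was 0.19. In 22 of the 29 members (75.9%) the group difference was below the larger replicate gap, against 75.4% of all tested genes. Without A7 replicate 1, the differences of ACAT2, FDPS and EBP went from -0.27, -0.23 and -0.20 to -0.05, -0.11 and -0.09, and those of PLIN3 and SREBF1 from 0.19 and 0.17 to 0.02 and 0.04. Replicate 2 was above replicate 1 in both groups for 10 of the 16 tested sterol pathway genes (62.5%), 4 of 5 in the mevalonate arm, and for 30.6% of all tested genes. By library, the mevalonate arm deviated by -0.03 and 0.20 with vehicle and -0.02 and 0.08 with A7 (medians over its genes), so its high libraries were the second replicates. The regulators deviated by -0.23 and -0.10 with vehicle and 0.18 and 0.14 with A7, apart by group rather than by replicate. These are medians over the 4 tested regulators, without SREBF2 and SCAP. Leaving out 1 library, the differences ran from 0.58 to 0.77 (INSIG1), 0.11 to 0.42 (INSIG2), 0.03 to 0.30 (STARD4) and 0.03 to 0.32 (SREBF1).

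**Figure D5:**
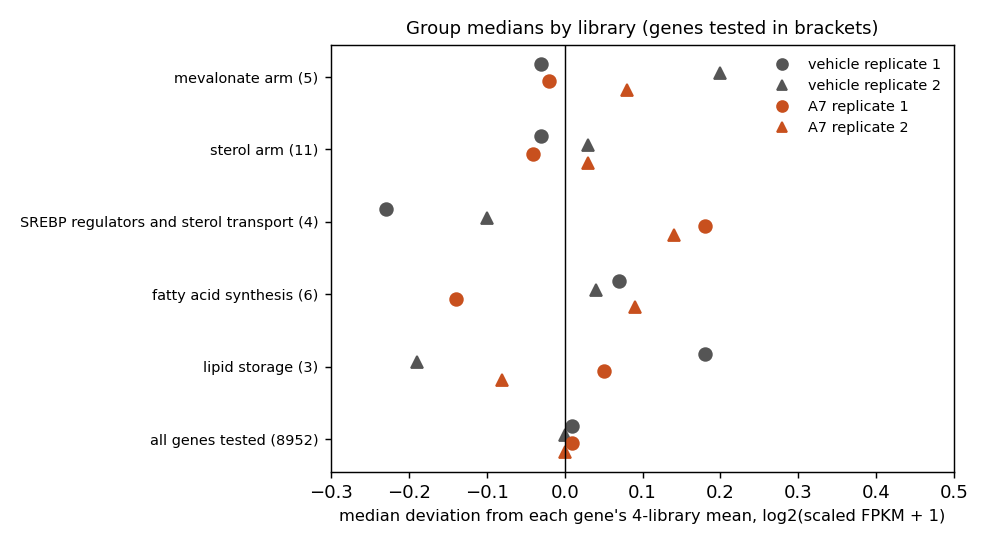
Median over each pathway group of the deviation from the gene's mean over the 4 libraries, log2(scaled FPKM + 1), for each library. The median of the regulators (4 genes) separates by group, with vehicle at -0.23 and -0.10 and A7 at 0.18 and 0.14. Of its genes, SREBF1 and STARD4 each overlap between vehicle and A7. The medians of the other pathway groups overlap between vehicle and A7.

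Beyond the members, 4 lists of neighbouring lipid genes held no gene that passed the adjusted threshold. Of the 17 tested genes for sterol uptake, efflux and esterification, 11 had a higher mean (median 0.12), and none had an unadjusted p under 0.05. MBTPS2, a protease that releases SREBP, had 2.69 and 2.58 with vehicle and 3.49 and 4.50 with A7 (0.45; limma, adjusted p = 0.806). ABCG1, a sterol exporter, had 4.59 and 3.37 against 4.91 and 4.63. MBTPS2 and ABCG1 did not overlap between groups, ABCG1 only narrowly, and neither passed the adjusted threshold. The groups did not overlap for 5 of the 17 genes (29.4%), against 36.9% of all tested genes.

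Of the 18 tested genes of other fatty acid supply, 10 had a higher mean (median 0.02). FABP5, a fatty acid carrier, was the 1 of these with an unadjusted p under 0.05: 544 and 597 scaled FPKM with vehicle and 372 and 356 with A7, 1.57-fold lower (log2 difference -0.65, SE 0.12; limma, unadjusted p = 0.00185, adjusted p = 0.487). That is 5.56% of this list, against 5.76% of all tested genes. The groups did not overlap for 33.3% of the list, against 36.9%. ELOVL7 had 6.26 and 4.72 against 6.72 and 8.15, and ACSL3, which activates fatty acids, had 11.8 and 10.9 against 14.1 and 13.9.

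Of 13 tested genes of other glycerolipid and droplet biology, 5 had a higher mean (median -0.10). AGPAT1, an acyltransferase for phosphatidic acid, had 4.41 and 3.11 with vehicle and 6.38 and 6.42 with A7, 1.7-fold higher (0.65, SE 0.20; limma, unadjusted p = 0.0187, adjusted p = 0.806). LPIN1 had 3.38 and 3.11 against 6.00 and 3.67 (0.43, and 0.14 without A7 replicate 1), and PCYT1A had 6.12 and 5.85 against 5.17 and 4.29. Of 19 tested genes of fatty acid oxidation, 8 had a higher mean (median -0.02). CPT1A, the gate of fatty acids into mitochondria, had 13.0 and 16.1 against 20.8 and 19 (0.43; limma, unadjusted p = 0.0442, adjusted p = 0.806). ECHS1, a hydratase of the same pathway, was lower (154 and 144 against 109 and 126; limma, unadjusted p = 0.0478), as was ECI2 (127 and 138 against 94.1 and 116). ECI2 went from a difference of -0.34 to -0.19 without A7 replicate 1, and none of these genes passed the adjusted threshold. At an unadjusted p under 0.05 (limma) were 7.69% of the glycerolipid and 10.5% of the oxidation genes, against 5.76% of all tested genes. The groups did not overlap for 53.8% of the glycerolipid and 36.8% of the oxidation genes, against 36.9%.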

How the data were processed

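RNA from 2 vehicle and 2 A7 libraries of LCC9 cells was turned into cDNA with a PCR-based SMARTer kit, sheared and amplified for 11 cycles, per the labels' protocols. CASAVA 1.8.2, TopHat, Cufflinks 2.2.1 and build GRCh37 come from the submitters' processing notes. Their annotation and handling of multi-mapped reads: not given in the sources used here. The authors deposited FPKM per gene symbol, per the file headers. Of 23619 lines, 14 with a number for a symbol (at most 0.00539% of the summed FPKM) were left out. FPKM were divided by median-ratio factors over 8802 genes (1.002, 1.014, 0.9899 and 1.02). The 8952 genes with a mean FPKM of at least 1 were tested with limma 3.58.1 (R 4.3.3, trend, 2 residual and 3.89 prior degrees of freedom) on log2(scaled FPKM + 1), two-sided, Benjamini-Hochberg threshold 0.05; this scale understates the change of low genes. An exact permutation test of 2 against 2 cannot go below p = 0.333. The fit was checked on simulated data. Depth was estimated from the steps of low FPKM with GENCODE 29 lengths; fragment intervals (95%, counting error only) ignore PCR duplicates and replicate spread. Copies were searched with blastn 2.17.0 (at least 95% identity over 50% of the transcript). Members and lists were chosen with earlier results of these data known. Values per library are given for a fixed set of defining members and for any other with an unadjusted p under 0.05 or a 1.5-fold difference without overlap, and for the 3 neighbours of smallest p in each list, of which 1 is not reported here. The alternatives were other pseudocounts, filters and scalings, no variance trend, a replicate block and leaving out each library.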

Additional observations from a re-analysis of the deposited data

How the results depend on the processing

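Under all 13 alternatives 0 members passed the adjusted threshold, and members at an unadjusted p under 0.05 (main 2) numbered 1 to 4: 3 without a filter, 1 at a mean of at least 5 FPKM (FITM2 is below it), 4 with TPM scaling and 4 with a replicate block. FITM2 ranged from -1.38 to -0.42 (12 alternatives) and INSIG1 from 0.39 to 0.86, with adjusted p of 0.437 to 0.999 for each. Of 41 named genes with a difference, 29 kept their sign and 12 did not. Those that kept it were 17 members and the 12 neighbours. The neighbours were picked by smallest p, which favours a kept sign, so members and neighbours cannot be compared in this. Same-numbered replicates deviated together by r = 0.0906 over the tested genes, which cannot settle whether the numbers pair the libraries. The replicate block, with fewer residual degrees of freedom, gave 0 calls higher and 0 lower. It had 862 genes at an unadjusted p under 0.05 (limma), against 516 in the main fit. All-gene calls (1 higher, 1 lower) were 0 lower with a pseudocount of 0.1, 0 and 0 with 10, 0 and 0 without a filter, 3 lower at 5 FPKM, 2 lower with TPM and with quantile normalization, 0 higher without a trend, and 1 to 10 higher and 0 to 7 lower when leaving out 1 library. TPM scaling moved the median of all genes to 0.174, and FDFT1 to 0.10, CYP51A1 to 0.14, MSMO1 to 0.09 and EBP to 0.02, each below that median; quantile normalization moved FDFT1 to 0.11, CYP51A1 to 0.06 and MSMO1 to 0.02. TPM list medians were 0.24 (mevalonate), 0.25 (sterol), 0.41 (regulators), 0.14 (fatty acid synthesis), 0.26 (all members), 0.30 (uptake), 0.18 (other fatty acid), 0.10 (glycerolipid) and 0.18 (oxidation). With a pseudocount of 10 medians were 0.12 (regulators), 0.03 (all members), 0.05 (uptake) and -0.03 (glycerolipid); without a filter 0.09 (fatty acid synthesis), -0.03 (storage) and 0.02 (glycerolipid); at 5 FPKM -0.08 (sterol) and 0.02 (glycerolipid). Leaving out 1 library, medians ran from -0.13 to 0.06 (mevalonate), -0.07 to 0.08 (sterol), 0.21 to 0.36 (regulators), -0.20 to 0.05 (fatty acid synthesis), -0.07 to 0.29 (storage), -0.03 to 0.08 (all members), 0.04 to 0.17 (uptake), -0.05 to 0.12 (other fatty acid), -0.12 to 0.09 (glycerolipid) and -0.10 to 0.06 (oxidation). Differences that changed sign there ran from -0.13 to 0.67 (HMGCS1), -0.06 to 0.38 (IDI1), -0.33 to 0.09 (FDFT1), -0.30 to 0.03 (MSMO1), -0.02 to 0.10 (NSDHL), -0.09 to 0.22 (SC5DL), -0.12 to 0.30 (TM7SF2), -0.12 to 0.39 (DHCR7), -0.07 to 0.25 (SCD) and -0.07 to 0.52 (DGAT2). The cause was not tested. A library left alone in its group is assumed to vary like the other group. Depth limits MVK, MVD, SREBF2, FADS2, DGAT1 and PLIN2 to about 6 to 20 fragments in all and SCAP to 32.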
